A study of Mus musculus with 30 samples.

Results

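Mbp, Pmp22, S100b, Sox10, Prx and Mag are genes of Schwann cells and of the myelin they make around peripheral axons. Their 6 rows were read by symbol from a table of 47643 rows, of which 23193 were above 0 in at least 1 library. All 6 were found, and each was above 0 in all 30 libraries. The tissue was the tibialis anterior, the shin muscle that lifts the foot, from male C57BL/6J mice. It carries branches of a peripheral nerve, so these transcripts come with the muscle as a small share of its RNA. Muscle at 24 months (old, n = 3) was set against muscle at 6 months (young, n = 3). Dexamethasone, a glucocorticoid drug, was given in the next experiment, and this muscle was set against its own control (n = 4 each). Muscle labelled LLC cancer, an abbreviation that the labels leave unexplained, had a control group of its own (n = 4 each). Muscle given siRNAs against Cyr61, a gene for a secreted matrix protein, was set against muscle given NT siRNAs, where NT is also unexplained (n = 4 each). The labels give no dose, duration or vehicle, no age outside the first pair and no allele. Their extraction note refers to earlier work on UBR4 mKO muscle at the ages of the first pair.

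Schwann cells accompany every axon of a peripheral nerve. Myelinating Schwann cells each wrap a segment of a large axon in compacted membrane, and terminal Schwann cells cap the nerve ending at the neuromuscular junction. The transcription factor Sox10 is required in the lineage at all stages, and together with Egr2 it switches on the myelin genes. Pmp22 is a membrane protein of compact peripheral myelin, and too much or too little of it causes inherited neuropathy. Mbp is a basic protein that sits on the inner face of the myelin membrane. Prx, or periaxin, links the outer Schwann cell membrane to the basal lamina through Drp2, and Mag is an adhesion protein of the inner membrane that faces the axon. S100b is a calcium-binding protein commonly used to stain Schwann cells. Several of these genes are also used by other cells: Mbp and Mag by oligodendrocytes of the central nervous system, Pmp22 by fibroblasts and endothelium, and S100b by some fat and glial cells.

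On the mouse assembly mm10 in the GENCODE M21 annotation, Pmp22 lies at chr11:63128982-63159547, S100b at chr10:76253853-76261159 and Prx at chr7:27499324-27520214, all on the plus strand. Sox10 lies at chr15:79154908-79165240 and Mag at chr7:30899176-30914873, both on the minus strand. Prx shared 300 exonic bases, 5.4% of its exonic length, with the antisense gene Gm15541, which never passed 0.277 TPM. Because Sox10 binds DNA at short AT-rich core letters, the 250 bases before the most upstream RefSeq start (GRCm38.p6) of 4 of the genes are shown, 5′ to 3′ on the coding strand, with any such core in capitals. The letters searched were ACAAAG and AACAAT and their reverse complements CTTTGT and ATTGTT. The windows are chr11:63128732-63128981 (Pmp22), chr10:76253586-76253835 (S100b), chr7:27499074-27499323 (Prx) and chr7:30914923-30915172 (Mag, minus strand).
Pmp22: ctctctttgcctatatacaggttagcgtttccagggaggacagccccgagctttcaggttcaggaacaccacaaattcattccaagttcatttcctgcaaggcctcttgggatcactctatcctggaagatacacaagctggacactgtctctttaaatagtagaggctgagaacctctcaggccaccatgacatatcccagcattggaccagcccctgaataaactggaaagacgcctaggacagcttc
S100b: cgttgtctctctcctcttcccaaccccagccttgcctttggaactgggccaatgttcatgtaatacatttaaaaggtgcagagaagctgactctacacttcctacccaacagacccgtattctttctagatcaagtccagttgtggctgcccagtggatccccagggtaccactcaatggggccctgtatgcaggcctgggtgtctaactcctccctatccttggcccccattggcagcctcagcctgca
Prx: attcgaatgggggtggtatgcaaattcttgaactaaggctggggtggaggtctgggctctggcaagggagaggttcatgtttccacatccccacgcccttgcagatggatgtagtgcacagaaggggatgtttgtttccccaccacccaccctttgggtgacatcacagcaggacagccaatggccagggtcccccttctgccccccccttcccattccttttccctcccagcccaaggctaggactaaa
Mag: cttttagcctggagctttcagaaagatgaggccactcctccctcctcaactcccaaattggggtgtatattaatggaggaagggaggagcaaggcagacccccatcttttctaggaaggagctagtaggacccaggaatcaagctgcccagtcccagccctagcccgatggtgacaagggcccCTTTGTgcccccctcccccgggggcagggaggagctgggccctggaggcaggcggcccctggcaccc
Mag held 1 match, CTTTGT, whose first base lies 67 bases before the start. The windows of Pmp22, S100b and Prx held none. Among all 32841 RefSeq promoter windows of the same length, 16.5% held ACAAAG or CTTTGT, 9.4% held AACAAT or ATTGTT, and 24.0% held at least 1 of these. A match is a description of the letters in this window alone.

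The values are TPM, read counts divided by gene length and scaled to the same total in every library, so levels of different genes can be compared. Libraries held 27.4e6 to 55.0e6 reads assigned to genes, as recovered from the steps of the TPM values. Mitochondrially encoded genes took 34.0% to 60.4% of the TPM, with the dexamethasone libraries lowest (34.0% to 41.5%) and the third LLC library highest. Markers of muscle fibres summed to between 50706 and 100099 TPM in every library, as the tissue label requires, and the 5 T cell markers to between 0.136 and 23.6 TPM. In the siRNA experiment Cyr61 itself was at 56.6 ± 13.9 TPM with NT siRNA (36.8 to 67.8) and 39.2 ± 12.3 TPM with Cyr61 siRNA (25.5 to 52.8; SD, n = 4 each), and the groups overlapped (exact permutation test, two-sided, p = 0.143). The labels call the libraries biological replicates without naming animals, so p-values measure the spread between these samples. In whole muscle, fewer Schwann cells and less RNA per Schwann cell cannot be told apart.

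Pmp22 was the most abundant of the 6, with 9.34 to 39.3 TPM over the 30 libraries (405 to 2416 reads). Mbp (chr18:82475146-82585637, plus strand) followed with 1.75 to 9.10 TPM (295 to 1362 reads), Prx with 1.00 to 5.85 TPM (119 to 569 reads) and S100b with 0.639 to 2.95 TPM (21 to 103 reads). Sox10 lay between 0.346 and 2.59 TPM (18 to 149 reads). Mag was the lowest, at 0.0737 to 0.766 TPM (8 to 70 reads), and reached 1 TPM in 0 libraries, so its values carry the largest counting error. Both groups of the dexamethasone experiment and the old muscle were the 3 highest groups for all 6 genes. NT siRNA muscle was the lowest group for 5 of the 6, and for Mbp it was young muscle.

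Mbp averaged 5.65 ± 0.914 TPM with dexamethasone, 5.49 ± 3.16 in old muscle, 4.77 ± 0.795 in the dexamethasone control and 4.05 ± 0.572 with Cyr61 siRNA (SD throughout). It averaged 3.18 ± 0.661 in the LLC control, 3.11 ± 0.655 with NT siRNA, 3.02 ± 0.997 with LLC and 2.66 ± 0.724 in young muscle. Only the step from Cyr61 siRNA to the LLC control was wider than the larger SD of the neighbouring groups. Pmp22 averaged 36.2 ± 2.38 TPM with dexamethasone, 28.8 ± 3.45 in its control, 18.8 ± 7.74 in old muscle, 18.6 ± 2.17 in the LLC control, 15.7 ± 4.75 with LLC, 14.7 ± 4.61 with Cyr61 siRNA, 12.9 ± 2.70 in young muscle and 11.3 ± 1.68 with NT siRNA. The first 2 of those steps were wider than the larger SD and the others were not. S100b averaged 2.60 ± 0.263, 2.17 ± 0.741, 1.95 ± 0.374 and 1.61 ± 0.617 TPM with dexamethasone, in old muscle, in the dexamethasone control and in the LLC control. It then averaged 1.33 ± 0.321 in young muscle, 1.25 ± 0.430 with LLC, 1.11 ± 0.158 with Cyr61 siRNA and 0.874 ± 0.274 with NT siRNA, and no step was wider than the larger SD.

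Sox10, the transcription factor among the 6, averaged 1.99 ± 0.556 TPM with dexamethasone, 1.61 ± 0.297 in its control and 1.50 ± 0.935 in old muscle, against 0.876 ± 0.127 with Cyr61 siRNA, 0.600 ± 0.128 in the LLC control, 0.581 ± 0.122 with LLC, 0.569 ± 0.0968 in young muscle and 0.494 ± 0.197 with NT siRNA. Only the step from Cyr61 siRNA to the LLC control passed the larger SD. Prx averaged 3.96 ± 1.07 TPM with dexamethasone, 3.63 ± 1.93 in old muscle and 3.21 ± 0.593 in the dexamethasone control, and the other 5 groups lay between 1.39 ± 0.287 (NT siRNA) and 2.05 ± 0.547 TPM (LLC). The step from the dexamethasone control to LLC was the only one past the larger SD, and these groups did not overlap. Mag averaged 0.564 ± 0.120 TPM in the dexamethasone control, 0.444 ± 0.0593 with dexamethasone and 0.436 ± 0.289 in old muscle. It averaged 0.283 ± 0.102 in the LLC control, 0.240 ± 0.0687 in young muscle, 0.183 ± 0.0184 with Cyr61 siRNA, 0.167 ± 0.0669 with LLC and 0.142 ± 0.0365 with NT siRNA, with no step past the larger SD. The experiments may have been prepared apart, so levels between experiments are a description without a test. The dexamethasone control was also highest among the 4 control groups in summed fibroblast markers (499 to 680 TPM, against 180 to 376 in the other controls) and endothelial markers (157 to 176, against 70.4 to 125), and the part of this in the level of the 6 genes was not tested.

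**Figure D1:**
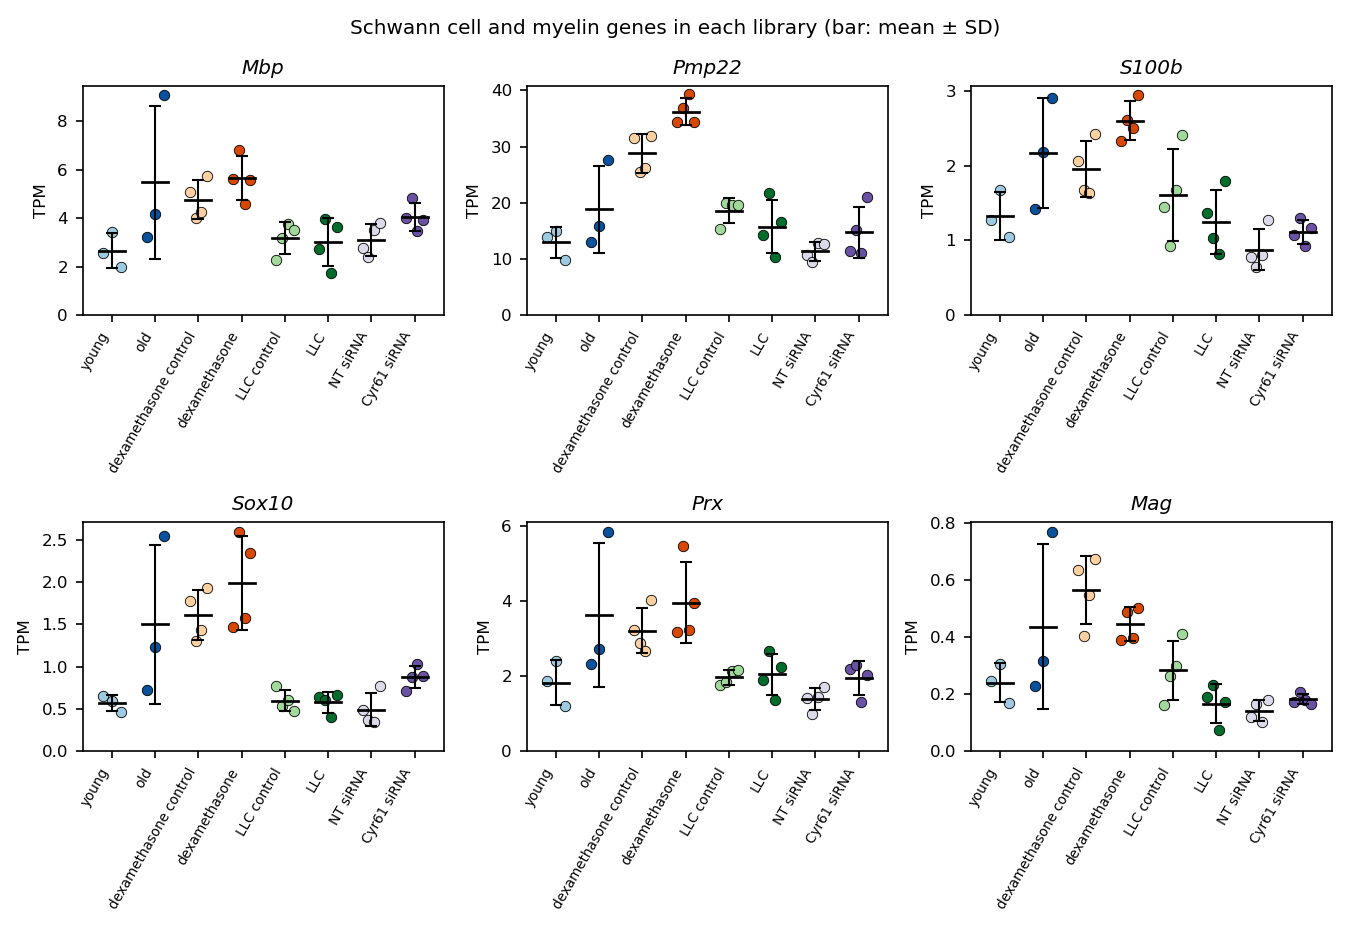
TPM of each of the 6 genes (vertical axis, a separate linear scale starting at 0 in each panel) in the 30 libraries, which are ordered by group along the horizontal axis. Each point is 1 library, and the horizontal line and bar give the group mean and SD. The third old library is the top point for Mbp (9.10), Prx (5.85) and Mag (0.766), and Pmp22 with dexamethasone (34.3 to 39.3) lies above its control (25.5 to 31.9).

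In old muscle the means of all 6 genes were above those of young muscle, by 1.46-fold (Pmp22) to 2.64-fold (Sox10), but 0 of the 4 genes that passed the filter were called. The filter asked for 1 TPM or more in a number of libraries no lower than the size of the smaller group. A call was an adjusted p under 0.05 in limma's moderated test on log2(TPM + 1) with Benjamini-Hochberg adjustment over all genes tested. In this comparison 0.171% of 10511 genes were called, and 11.2% had an unadjusted p under 0.05, as did Mbp, S100b and Prx. Limma voom on the recovered reads called 0 of the 6. Mbp read 2.55, 3.43 and 2.00 TPM in the 3 young libraries and 3.22, 4.16 and 9.10 in the 3 old ones. The third old library was far above the rest, and the first old library lay inside the young range. The log2 difference of Mbp was 0.74 (SE 0.253, adjusted p = 0.310 in limma, 2 of 3 old libraries above all young ones). Prx read 1.87, 2.41 and 1.22 TPM in young and 2.32, 2.72 and 5.85 TPM in old muscle, a log2 difference of 0.65 (SE 0.236, adjusted p = 0.336 in limma). It showed the same order of old libraries as Mbp. Pmp22 differed by 0.47 (SE 0.220, adjusted p = 0.446 in limma) and S100b by 0.43 (SE 0.183, adjusted p = 0.417 in limma).

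Sox10 was the only 1 of the 6 whose old and young libraries did not overlap. It read 0.650, 0.596 and 0.462 TPM in young muscle and 0.730, 1.23 and 2.54 TPM in old muscle, from 22 to 30 and 30 to 104 reads. Sox10 was under the filter, and its log2 difference of 0.61 had p = 0.1 in a two-sided exact permutation test, the smallest p that 3 against 3 allows. Among all genes tested, 15.5% were likewise higher in old muscle without overlap. Mag, also under the filter, read 0.247, 0.305 and 0.168 TPM in young and 0.227, 0.315 and 0.766 TPM in old muscle (exact permutation test, p = 0.4).

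These age differences leaned on the third old library. Without it the log2 difference fell to 0.37 for Mbp, 0.33 for Prx, 0.26 for S100b and 0.17 for Pmp22. Without the first or the second old library, or without the second young library, 2 of the 6 were called, Mbp each time (adjusted p between 0.0157 and 0.0483 in limma), in fits that called 1.06% to 1.93% of all genes. The other gene was Prx in 2 of these fits and Sox10 without the first old library, where Sox10 passed the filter only through the 2 old libraries left. The remaining 3 of the 6 such fits called none of these genes. On the log2 scale the median gene itself stood 0.14 above young muscle, and relative to it the 4 genes tested stood 0.29 (S100b) to 0.60 (Mbp) higher. The other 42 listed genes of Schwann cells and myelin gave 12 genes that passed the filter, of which 0 were called in limma or voom and 6 had an unadjusted p under 0.05, with a median log2 difference of 0.41 against 0.14 over all genes. Erbb3, the neuregulin receptor of Schwann cells, differed by 0.29 (SE 0.197, adjusted p = 0.581 in limma). Egr2 (0.146 TPM in young and 0.327 TPM in old muscle) and the neurotrophin receptor Ngfr (0.897 and 1.23 TPM, in the same order) stayed under the filter. Denervation markers summed to 25.6 to 27.0 TPM in young and 28.6 to 99.5 TPM in old muscle, and endothelial markers to 70.4 to 83.1 and 83.1 to 119 TPM, and their part in the values of the 6 genes was not tested.

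**Figure D2:**
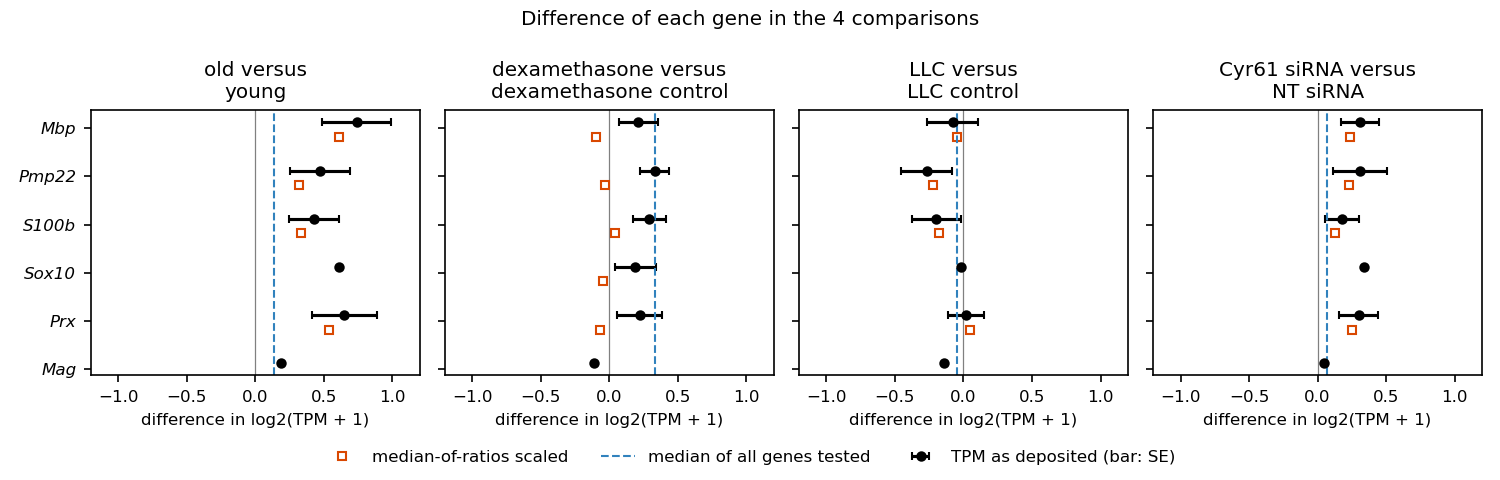
Difference of each gene in log2(TPM + 1) (horizontal axis) in the 4 comparisons. Black points are TPM as deposited, with the SE of the limma fit as bar where the gene passed the filter, open squares the same after median-of-ratios scaling, and the dashed line the median of all genes tested. With dexamethasone the points lie at or left of the dashed line at 0.33, and the squares for Mbp, Pmp22, Sox10 and Prx fall to the left of 0.

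With dexamethasone 1 of the 5 genes that passed the filter was called, Pmp22, in a comparison in which 37.4% of 11944 genes were called and 35.9% were called higher. Pmp22 read 31.6, 25.5, 26.1 and 31.9 TPM in the 4 controls and 34.4, 36.9, 39.3 and 34.3 TPM in the 4 treated libraries. Every treated library was above every control, as for 34.3% of all genes tested. The log2 difference was 0.33 (SE 0.108, adjusted p = 0.0386 in limma), a 1.26-fold ratio of means. It was no larger than that of the median gene, also 0.33. After median-of-ratios scaling, which removes a shift shared by most genes, the median gene moved to 0.02 and the difference of Pmp22 to -0.03 (adjusted p = 0.921 in limma). The call was lost in 7 of the 8 fits that left out 1 library, with adjusted p between 0.0522 and 0.121 in limma, and kept without the first treated library, where 71.9% of all genes were called. Mitochondrially encoded genes made up 48.7% of TPM in the controls and 37.9% in the treated libraries, and with those genes taken out of the total the Pmp22 difference was 0.06 (adjusted p = 0.766 in limma).

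S100b differed by 0.29 (SE 0.121, adjusted p = 0.0753 in limma), with 3 of 4 treated libraries above all controls. Mbp differed by 0.21 (SE 0.142, adjusted p = 0.236 in limma), Prx by 0.22 (SE 0.164, adjusted p = 0.263 in limma) and Sox10 by 0.19 (SE 0.150, adjusted p = 0.299 in limma). All 5 of these differences were at or below that of the median gene, and after scaling they lay between -0.10 (Mbp) and 0.04 (S100b) with no call.

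After median-of-ratios scaling Mbp, Pmp22, Sox10 and Prx were below 0. In TPM as deposited Mag alone had a negative sign, opposite to the other 5. It read 0.633, 0.402, 0.546 and 0.674 TPM in the controls (48 to 70 reads) and 0.391, 0.488, 0.395 and 0.502 TPM after dexamethasone (37 to 48 reads), and the groups overlapped (exact permutation test, two-sided, p = 0.114). Limma voom on the recovered reads put its log2 difference at -0.50 with total library sizes (adjusted p = 0.126) and at -0.70 with scaled ones (SE 0.209, adjusted p = 0.0615). Measured within each library as the log2 TPM of Mag minus the mean log2 TPM of the other 5, Mag stood at -2.92 ± 0.18 in the controls (-3.18 to -2.76) and -3.57 ± 0.09 after treatment (-3.67 to -3.46; SD, n = 4 each). These ranges did not overlap. The measure was singled out after its values were seen and has no test. In the LLC experiment the same measure averaged -3.23 ± 0.45 in the controls and -3.88 ± 0.38 with LLC, with overlap, and in the age and siRNA experiments the groups also overlapped. Separation on this measure was not particular to Mag. Taken against its other 5, Prx stood at 0.11 to 0.28 in the LLC controls and 0.39 to 0.69 with LLC. With age, Sox10 stood at -1.94 to -1.50 in young and -1.45 to -0.99 in old muscle. Pmp22 stood at 3.63 to 3.80 in young and 3.14 to 3.53 in old muscle. Under LLC voom put the log2 difference of Mag at -0.73 with total library sizes (adjusted p = 0.392) and -0.69 with scaled ones (SE 0.368, adjusted p = 0.338).

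**Figure D3:**
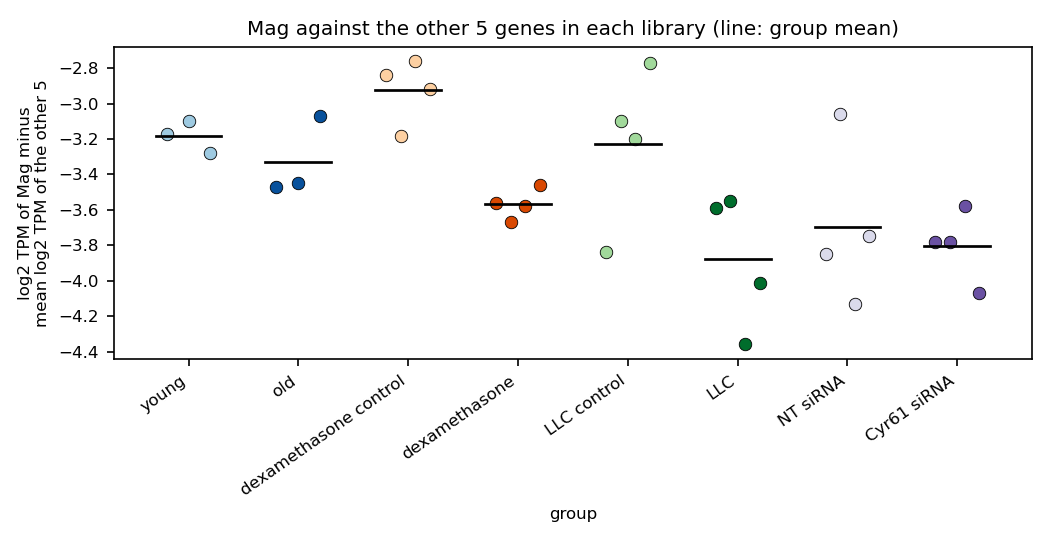
Log2 TPM of Mag minus the mean log2 TPM of Mbp, Pmp22, S100b, Sox10 and Prx (vertical axis) in each library, by group along the horizontal axis, with 1 point per library and a line at the group mean. The 4 dexamethasone libraries (-3.67 to -3.46) lie below the 4 controls of that experiment (-3.18 to -2.76), and in the other 3 experiments the groups overlap.

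Of the 42 other listed genes of Schwann cells and myelin 23 passed the filter after dexamethasone. In limma 9 of the 23 were called higher, as were 35.9% of all genes, and 0 were called lower, so the share was near the background. Their median log2 difference was 0.22, against 0.33 over all genes. Compact myelin genes gave 0 calls among 5 tested. Both neuregulin receptor subunits rose: Erbb2 from 1.75 ± 0.319 to 4.12 ± 1.11 TPM (log2 difference 0.87, SE 0.164, adjusted p = 0.00526 in limma) and Erbb3 from 2.66 ± 0.288 to 5.10 ± 1.08 TPM (0.72, SE 0.145, adjusted p = 0.00666). Muscle fibres and epithelia can also use Erbb2. Egr2 rose from 1.18 ± 0.394 to 2.38 ± 0.485 TPM (0.64, SE 0.155, adjusted p = 0.0141 in limma). Among genes of non-myelinating and repair Schwann cells, 4 of 6 tested were called higher. Ncam1, an adhesion molecule that denervated muscle fibres also make, went from 3.46 ± 1.29 to 13.8 ± 2.88 TPM (1.75, SE 0.205, adjusted p = 0.000951 in limma). Jun, a broadly expressed factor that drives the repair state, went from 37.3 ± 3.77 to 66.5 ± 12.2 TPM (0.80, SE 0.132, adjusted p = 0.00336 in limma). Scn7a, a sodium channel of non-myelinating Schwann cells, rose by 0.74 (SE 0.186, adjusted p = 0.0156 in limma), and Ngfr differed by 0.21 (SE 0.161, adjusted p = 0.279 in limma).

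After median-of-ratios scaling 9.15% of all genes were called, 4.44% higher and 4.71% lower. Still called higher were 4 of the 9: Erbb2 (0.61, adjusted p = 0.0102 in limma), Erbb3 (0.43, adjusted p = 0.0152), Ncam1 (1.44, adjusted p = 0.00266) and Jun (0.44, adjusted p = 0.0293). Egr2 then stood at 0.41 (adjusted p = 0.160 in limma) and Scn7a at 0.46 (adjusted p = 0.0874). Sh3tc2, a Schwann cell protein of endosomes, was then called lower at -0.43 (adjusted p = 0.0105 in limma; named after its values were seen). Its TPM as deposited gave -0.24 (adjusted p = 0.0753), and voom with total library sizes called it at -0.63 (adjusted p = 0.0168). Markers of other cells moved in the same comparison. All 8 denervation markers rose, Chrnd, Runx1 and Chrng with the smallest adjusted p, from a sum of 71.8 to 156 TPM in the controls to 292 to 446 TPM. All 6 macrophage markers rose, Cd163, Cd14 and Lyz2 first, from 205 to 373 TPM to 896 to 2216 TPM. Of 5 adipocyte markers tested 4 were called higher, led by Retn, Cidec and Adipoq. Col1a1 was the only 1 of 6 fibroblast markers called higher (0.94, adjusted p = 0.0333 in limma). After scaling 2 of 5 adipocyte and 0 of 6 fibroblast markers were called, and all 8 denervation and 5 of 6 macrophage markers. Cldn5 fell (-0.35, adjusted p = 0.0306 in limma) and was the only 1 of 6 endothelial markers called, where 4 of 6 were called lower after scaling. All 5 T cell markers, under the filter, were lower in every treated library than in every control (summed TPM 2.53 to 3.87 against 0.304 to 0.990). Among genes that passed the filter 1.66% were likewise lower without overlap. Voom called 4 of the 5 markers lower with total and with scaled library sizes, and with scaled ones it called 5.43% of 14907 genes lower. The part of these cells in the Schwann cell values was not tested.

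Under LLC 0 of the 4 genes that passed the filter were called in limma, where 1.18% of 10830 genes were called and 13.2% had an unadjusted p under 0.05. None of the 4 did, and voom called 0. Pmp22 read 15.3, 20.0, 19.5 and 19.5 TPM in the controls and 14.3, 21.7, 10.3 and 16.6 TPM with LLC. The third LLC library was the lowest and the second was above all controls. The log2 difference of Pmp22 was -0.27 (SE 0.189, adjusted p = 0.615 in limma), and without the third LLC library it was -0.09. Mbp read 2.26, 3.16, 3.77 and 3.51 TPM in the controls and 2.71, 3.97, 1.75 and 3.64 TPM with LLC, a log2 difference of -0.08 (SE 0.185, adjusted p = 0.924 in limma) that became 0.09 without the third LLC library. That library also had the highest mitochondrial share, 60.4%. S100b differed by -0.20 (SE 0.179, adjusted p = 0.709 in limma) and Prx by 0.02 (SE 0.133, adjusted p = 0.980 in limma). Sox10, under the filter, averaged 0.600 ± 0.128 and 0.581 ± 0.122 TPM (exact permutation test, p = 0.914). Mag read 0.162, 0.262, 0.299 and 0.409 TPM in the controls and 0.191, 0.231, 0.0737 and 0.171 TPM with LLC, the latter from 8 to 21 reads, and the groups overlapped (exact permutation test, p = 0.114).

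Of the other listed Schwann cell and myelin genes 13 passed the filter under LLC, 0 were called in limma or voom and 1 had an unadjusted p under 0.05, with a median of -0.15 against -0.05 over all genes. Erbb3 differed by 0.04 (SE 0.113, adjusted p = 0.931 in limma). Egr2 (0.358 TPM in the controls and 0.282 TPM with LLC) and Ngfr (0.571 and 0.757 TPM, in the same order) stayed under the filter. Fibroblast markers summed to 320 to 375 TPM in the controls and 167 to 429 TPM with LLC, and 0 of 6 were called in limma. Voom with scaled library sizes, which called 3.27% of 14060 genes, called Col1a1 at -1.52 (adjusted p = 0.0441, named after its values were seen). The other fits did not call it: adjusted p was 0.0780 in limma, 0.0512 in limma after median-of-ratios scaling and 0.0642 in voom with total library sizes.

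With Cyr61 siRNA all 6 means were above those with NT siRNA, by 1.27-fold (S100b) to 1.77-fold (Sox10), and 0 of the 4 genes that passed the filter were called. In this comparison limma called 0% of 11006 genes, 0.990% had an unadjusted p under 0.05, and 0 of the 4 did. Voom called 0 of the 6. S100b passed the filter with 3 Cyr61 siRNA libraries and 1 NT library at 1 TPM or more. Mbp read 2.76, 2.38, 3.49 and 3.81 TPM with NT siRNA and 4.00, 4.83, 3.45 and 3.93 TPM with Cyr61 siRNA, so 3 of 4 were above all NT libraries. Its log2 difference was 0.31 (SE 0.138, adjusted p = 0.999 in limma). Sox10 read 0.491, 0.366, 0.346 and 0.773 TPM with NT siRNA (18 to 49 reads) and 0.717, 0.875, 1.03 and 0.886 TPM with Cyr61 siRNA (44 to 53 reads). The fourth NT library reached into the Cyr61 range, and the exact permutation test (two-sided) gave p = 0.0571, against a smallest possible 0.0286 for 4 against 4. Pmp22 differed by 0.31 (SE 0.194), Prx by 0.30 (SE 0.144) and S100b by 0.18 (SE 0.125), each with an adjusted p of 0.999 in limma. Mag averaged 0.142 ± 0.0365 and 0.183 ± 0.0184 TPM (exact permutation test, p = 0.114). Of the other listed genes 17 passed the filter, 0 were called in limma or voom and 3 had an unadjusted p under 0.05, with a median of 0.13 against 0.07 over all genes. Erbb3, Egr2 and Ngfr averaged 2.67, 0.356 and 0.942 TPM with NT and 2.30, 0.392 and 1.48 TPM with Cyr61 siRNA.

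Whether the response of a gene differed between wasting models was tested with interaction terms over 22 libraries, each model against its own control. For 0 of the 6 genes was any of the 3 differences called in limma or voom, and in limma Mag was under the filter. Of the 5 genes that limma tested, 2 had an unadjusted p under 0.05 for LLC minus dexamethasone. All 5 did for LLC minus old and 0 for dexamethasone minus old. The shares of all genes tested were 46.8%, 11.8% and 14.8%, in the same order. LLC minus dexamethasone came nearest, with -0.59 for Pmp22 (SE 0.278, adjusted p = 0.0984 in limma) and an adjusted p of 0.104 for S100b at -0.50, in a contrast in which 27.2% of 12158 genes were called and the median gene stood at -0.37. Pmp22 was called there without the second LLC library (-0.76, adjusted p = 0.0366 in limma), where 34.3% of all genes were called. LLC minus old, where 0.0484% of all genes were called, lay between -0.82 (Mbp) and -0.63 (S100b and Sox10), with adjusted p between 0.318 and 0.412 in limma. The median gene stood at -0.19 in that contrast. Sox10 passed the filter there only through the libraries of the dexamethasone experiment, which are outside that contrast. It was under 1 TPM in every young, LLC and LLC control library. Dexamethasone minus old, where 2.06% were called, lay between -0.53 (Mbp) and -0.14 (Pmp22 and S100b), with adjusted p between 0.413 and 0.830 in limma. Its median gene stood at 0.18. Without the third old library LLC minus old was -0.45 for Mbp, -0.34 for Sox10 and -0.31 for Prx, and dexamethasone minus old was -0.16 for Mbp, -0.14 for Sox10 and -0.11 for Prx.

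Within groups the 6 genes varied together from library to library. Each gene's log2(TPM + 1) was taken as a deviation from its group mean, and Pearson's r was computed over the 30 libraries as a description, since the genes share each library's RNA, depth and scaling. All 15 pairs were positive, from 0.52 (Pmp22 and Sox10) to 0.92 (Mbp and Prx), and from 0.38 to 0.89 without the third old library. The mean deviation of the 6, each scaled to SD 1, was highest in the third old library (2.56) and lowest in the first old library (-1.92) and the third LLC library (-1.47).

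The genes most like the 6 were searched among 11316 other genes with a mean of at least 1 TPM, by r with that mean deviation. The median over all of them was 0.31. Among the highest were Mal (0.93), Plekha4 (0.89), Drp2 (0.86), Aatk (0.86) and Cadm4 (0.80). Without the third old library these stood at 0.90, 0.84, 0.82, 0.80 and 0.71. Mal is a proteolipid of myelin membranes, Drp2 the partner of periaxin at the outer Schwann cell membrane, and Cadm4 the Schwann cell adhesion molecule along the internode. These 3 are genes of the Schwann cell lists, while Plekha4 and Aatk were on none of them. Itgb4, the integrin subunit that anchors Schwann cells to the basal lamina, ranked 9 (0.75), and the secreted Schwann cell factor Lgi4 ranked 31 (0.69). Among the other listed Schwann cell genes called higher with dexamethasone, Drp2 was thus close to the 6. Erbb3 stood at 0.39, Jun at 0.31, Scn7a at 0.27, Erbb2 at 0.16, Nab2 at 0.09 and Ncam1 at 0.02. Macrophage markers lay between -0.08 (Lyz2) and 0.11 (Csf1r), and the collagen gene Col1a1 at 0.15. Some markers of other cells stood higher. Endothelial markers lay between 0.00 (Cldn5) and 0.56 (Cdh5), and muscle fibre markers between -0.36 (Mb) and 0.43 (Myh4).

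**Figure D4:**
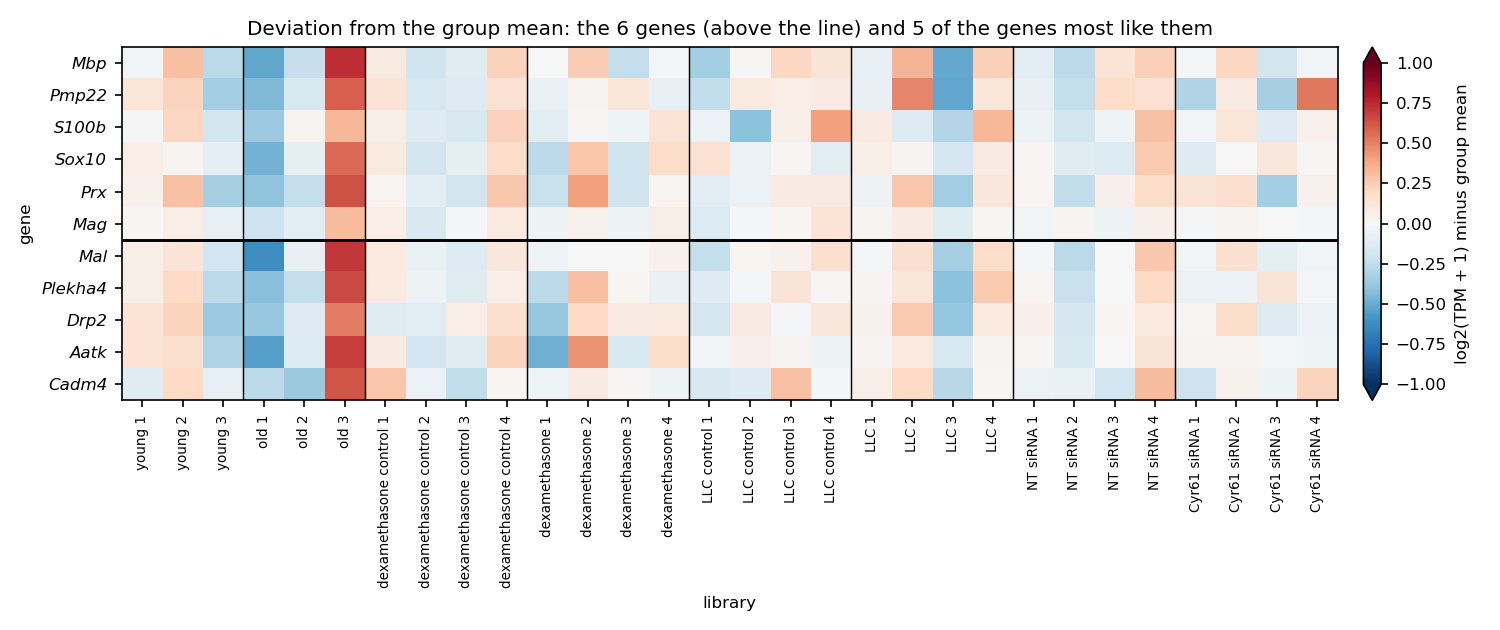
Deviation of log2(TPM + 1) from the group mean (colour, red above and blue below, scale from -1 to 1) for the 6 genes, above the thick line, and 5 of the genes most like them, below it, in the 30 libraries along the horizontal axis. Thin vertical lines separate groups. The columns of the third old library are red for all 11 genes, and those of the first old library are blue.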

How the data were processed

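RNA of 30 tibialis anterior samples was extracted with Trizol, made into stranded mRNA libraries and read on a NovaSeq, per the labels. The values are TPM computed by the authors, 1 column per sample with a sum of 1000000, in the deposited table. The build was mm10, per the submitters' processing notes. For the aligner, the counter, its strand setting and the annotation, the methods used were not given in the sources used here, so reads of Prx and its antisense partner may not be separable. Whole reads (tolerance 0.05) were recovered from the TPM steps for all 23193 genes above 0, for 15806 with the exon length of GENCODE M21 and for 7387 (Mbp and Sox10 among them) with the shortest length that gave whole numbers, whose reads may be low by a whole factor. Read numbers cover counting error only.

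Groups follow the labels. limma 3.58.1 (R 4.3.3) fitted log2(TPM + 1), pseudocount 1, with a variance trend, for each pair of groups alone and over 22 libraries for interaction terms. Differences are on the log2(TPM + 1) scale, which understates changes of low genes. Genes under the filter had an exact two-sided permutation test. Alternatives were other pseudocounts and filters, rescaling without mitochondrial genes, median-of-ratios scaling, 1 fit of all groups, a replicate block, leaving out each library, and, added after seeing the data, limma voom on recovered reads (at least 10 reads). The fits were tested on simulated data. The genes and gene lists were chosen with earlier results of these data known. From the other Schwann cell lists the text names up to 6 called genes per comparison and always Egr2, Erbb3 and Ngfr, from other cell types up to 3 called genes per list, and genes among the 6 most like the members. A result under this rule is not reported here. Promoters are from RefSeq (GRCm38.p6), with 4 of the 6 genes used. Tables and figures were made with pandas 2.3.3, matplotlib 3.10.9 and numpy 2.4.6 under Python 3.11.15.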

Additional observations from a re-analysis of the deposited data

Results flagged for a closer look

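The first LLC control library held 15.3 TPM of Pmp22, while the other 3 libraries of its group held between 19.5 and 20.0 TPM. The gap to the nearest of them was 0.903 of the range of the group, above Dixon's limit for groups of 4. Of 36 groups of 4 values examined for the 6 genes, 1 passed that limit, and chance alone passes about 1 in 20.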

How the results depend on the processing

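The number of the 6 genes called with dexamethasone, 1, became 0 after rescaling without mitochondrial genes, after median-of-ratios scaling, in 1 fit of all 8 groups, and in limma voom with either total or scaled library sizes. Leaving out 1 library at a time gave 0 to 2 genes called for age (with 0% to 2.56% of all genes called), 0 to 2 for dexamethasone (15.8% to 71.9%), 0 for LLC (0.174% to 3.29%), 0 for Cyr61 siRNA (0%), 0 to 1 for LLC minus dexamethasone (13.7% to 55.1%), 0 for LLC minus old (0.0316% to 0.340%) and 0 for dexamethasone minus old (1.10% to 3.17%). Signs turned mostly with scaling. With dexamethasone Mbp became -0.10 (median-of-ratios), -0.03 (without mitochondrial genes) and -0.13 (voom, scaled), Pmp22 -0.03 and -0.04, Sox10 -0.05 and -0.09, and Prx -0.07 and -0.10 (median-of-ratios and voom, scaled). For LLC minus dexamethasone the same 3 settings gave 0.06, 0.05 and 0.11 for Mbp, 0.05, 0.04 and 0.14 for Sox10 and 0.12, 0.12 and 0.21 for Prx, and voom, scaled, gave 0.02 for Mag. For LLC, Mbp was 0.02 without mitochondrial genes and lay between -0.19 and 0.09 with 1 library left out (0.09 without the third LLC library), Sox10 was 0.00 and 0.03 in voom with total and scaled library sizes, and Prx lay between -0.08 and 0.13 with 1 library left out (at or below 0 without the first or second control or the second or last LLC library). For dexamethasone minus old, Pmp22 lay between -0.36 and 0.16 and S100b between -0.32 and 0.03 with 1 library left out (0.16 and 0.03 without the third old library, and 0.03 for Pmp22 without the third young library). The cause of these turns was not tested. With 3 to 4 libraries a group and Mag at 8 to 70 reads, depth and number limit what could be detected.

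Samples with the same replicate number did not deviate together in every pair (lowest correlation 0.03 with dexamethasone, 0.04 for age and LLC, 0.09 for siRNA). The highest such correlation was 0.50 with dexamethasone and for siRNA, 0.37 for LLC and 0.14 for age. Correlation was best with the own number for 2 of 4 dexamethasone, 3 of 4 LLC, 2 of 4 Cyr61 siRNA and 2 of 3 old libraries. The labels name no animals, so whether the numbers pair the samples cannot be told from these values. With the replicate number as a block the count of called genes stayed 1 with dexamethasone (Pmp22 adjusted p = 0.0439 in limma) and 0 elsewhere.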
